A study of Mus musculus with 12 samples.

Results

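P2ry2, P2ry12, P2ry13 and Nt5e were examined in thymus RNA as the 4 genes of extracellular nucleotide sensing and adenosine production listed in a table of 479 genes. They were chosen by symbol, and all 4 rows were found. RNA was taken from whole thymuses of 12 mice at 1 month of age. Of these, 6 were wild-type (WT) C57BL6/J mice and 6 were Axl-/-Mertk-/- mice (AMDKO in the labels), with 3 males and 3 females of each genotype. The mutants are germline double knockouts of the receptor tyrosine kinases Axl and Mer, backcrossed to C57BL/6, and they lack both receptors in every cell. The study housed the WT and mutant lines separately, so that genotype, line and housing cannot be told apart. The question addressed was whether loss of the 2 engulfment receptors goes together with changes in the genes through which phagocytes sense nucleotides.

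Dying cells release ATP and UTP, which attract phagocytes as find-me signals. P2ry2 encodes P2Y2, the Gq-coupled receptor for ATP and UTP through which this attraction was described. P2ry12 and P2ry13 encode Gi-coupled receptors for ADP, P2Y12 being known from platelets and microglia and P2Y13 from macrophages and other hematopoietic cells. Nt5e encodes CD73, a membrane-anchored enzyme that converts extracellular AMP to adenosine and is carried by many lymphocytes, including regulatory T cells. In the thymus, macrophages clear the thymocytes that die during selection.

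The table lists genes that differed between these same mice. All differences below are therefore descriptions of selected genes, and p-values adjusted over the 479 genes are not independent evidence. Axl itself was at 13.3 ± 1.83 FPKM (reads per exon length and library size; mean ± SD, n = 6) in WT and 2.17 ± 0.199 FPKM in mutant mice, in the direction of the genotype labels. Read depth, estimated from the steps between low FPKM values, was 18900000 to 24500000 reads in WT and 19400000 to 23800000 reads in mutant mice. WT male 210 has a letter b after its label, the meaning of which is not given, and results that this mouse moves are given also without it. Each mouse was taken as a biological replicate.

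P2ry12 and P2ry13 are neighbors on mouse chromosome 3 (mm10, GENCODE vM21). P2ry13 lies at chr3:59207892-59210882 and P2ry12 at chr3:59216272-59262871, both on the minus strand and separated by 5.39 kb. Both lie inside Med12l, which runs on the opposite strand. P2ry12 shares 9 of its 2546 exon bases with exons of Med12l, and P2ry13 shares 0. P2ry2 is on chromosome 7 (chr7:100996568-101012866, minus strand), 75.2 Mb from Axl on the same chromosome. Nt5e is on chromosome 9 (chr9:88327197-88372092, plus strand). Because P2ry12 and P2ry13 are neighbors with falls of nearly the same size (below), the 250 bases before the RefSeq start of each (build GRCm38.p6) are shown. They were taken from chr3:59210883-59211132 and chr3:59262986-59263235 and are written 5′ to 3′ on the minus strand, with capitals marking a match to the ETS-type motif GGAAGT, of the kind bound by PU.1:
P2ry13: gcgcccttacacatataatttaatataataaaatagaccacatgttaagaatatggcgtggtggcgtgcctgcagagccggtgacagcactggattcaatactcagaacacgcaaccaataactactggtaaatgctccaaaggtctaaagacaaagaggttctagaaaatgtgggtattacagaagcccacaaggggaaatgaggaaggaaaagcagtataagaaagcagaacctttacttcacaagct
P2ry12: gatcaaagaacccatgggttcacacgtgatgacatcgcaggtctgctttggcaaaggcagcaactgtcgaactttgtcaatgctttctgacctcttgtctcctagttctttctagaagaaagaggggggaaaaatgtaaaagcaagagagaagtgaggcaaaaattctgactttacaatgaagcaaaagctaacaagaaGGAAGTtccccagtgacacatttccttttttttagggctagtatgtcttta
P2ry12 held this motif 51 bases before its start, and P2ry13 held no match. Of the 32851 mouse promoter windows of this length, 19.7% held the motif on either strand. Neither window held an ETS-IRF composite (GGAA and GAAA with 2 free bases between them), found in 2.30% of all windows, or the MAF half-site TGCTGAC, found in 3.81%, on either strand. The windows of P2ry2, which has 2 RefSeq starts, and of Nt5e held none of the 3 motifs. Part of the P2ry12 window overlaps an exon of Med12l on the opposite strand. Both ADP receptor windows were poor in G and C (41.6% each), with 5 CpG dinucleotides in P2ry13 and 3 in P2ry12. The windows of P2ry2 (65.2% and 71.2% G and C) and Nt5e (72%) were rich in them, with 21 to 26 CpG, against medians of 52.4% and 6 over all windows.

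The ADP receptors P2ry13 and P2ry12 were the most abundant of the 4 genes, and each was lower in every mutant mouse than in any WT mouse. P2ry13 ranged from 3.25 to 3.81 FPKM in WT mice (median 3.63) and from 1.78 to 2.60 FPKM in mutant mice (median 2.14). The genotypes did not overlap, and the closest mice were a WT female and a mutant male. P2ry12 ranged from 1.95 to 2.50 FPKM in WT mice (median 2.23) and from 1.11 to 1.68 FPKM in mutant mice (median 1.32). All 3 mutant males (1.47, 1.53 and 1.68 FPKM) were above all 3 mutant females (1.11, 1.12 and 1.17 FPKM), and all 6 were below the lowest WT mouse. The sexes were separated in the same way in WT mice, with males at 2.27, 2.28 and 2.50 FPKM and females at 1.95, 2.10 and 2.20 FPKM. Mutant means were 61.0% of WT for P2ry13 (2.17 ± 0.272 against 3.55 ± 0.208 FPKM) and 60.7% for P2ry12 (1.34 ± 0.243 against 2.22 ± 0.187 FPKM). In whole tissue, fewer cells that express a gene and less RNA per cell cannot be told apart. Each difference gave p = 0.00216 in a two-sided exact permutation test of log2(FPKM + 0.1), which is the smallest p that the 924 arrangements of 6 against 6 mice allow.

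Counted as reads, the falls of the ADP receptors were well above counting error. P2ry13 had 160 to 226 reads per WT library and 97 to 139 per mutant library. P2ry12 had 97 to 137 and 54 to 83 reads. The distance between the lowest WT and the highest mutant mouse was worth 34.8 reads for P2ry13 and 13.2 reads for P2ry12. Summed over the 6 mice and scaled to depth, mutant reads were 60.9% of WT for P2ry13 (95% exact interval 55.5 to 66.9%) and 60.4% for P2ry12 (53.3 to 68.3%). These intervals cover counting error only. Within WT mice, the SD was 0.838 times (P2ry13) and 0.914 times (P2ry12) what counting alone gives. Within mutants it was 1.36 and 1.48 times.

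**Figure D1:**
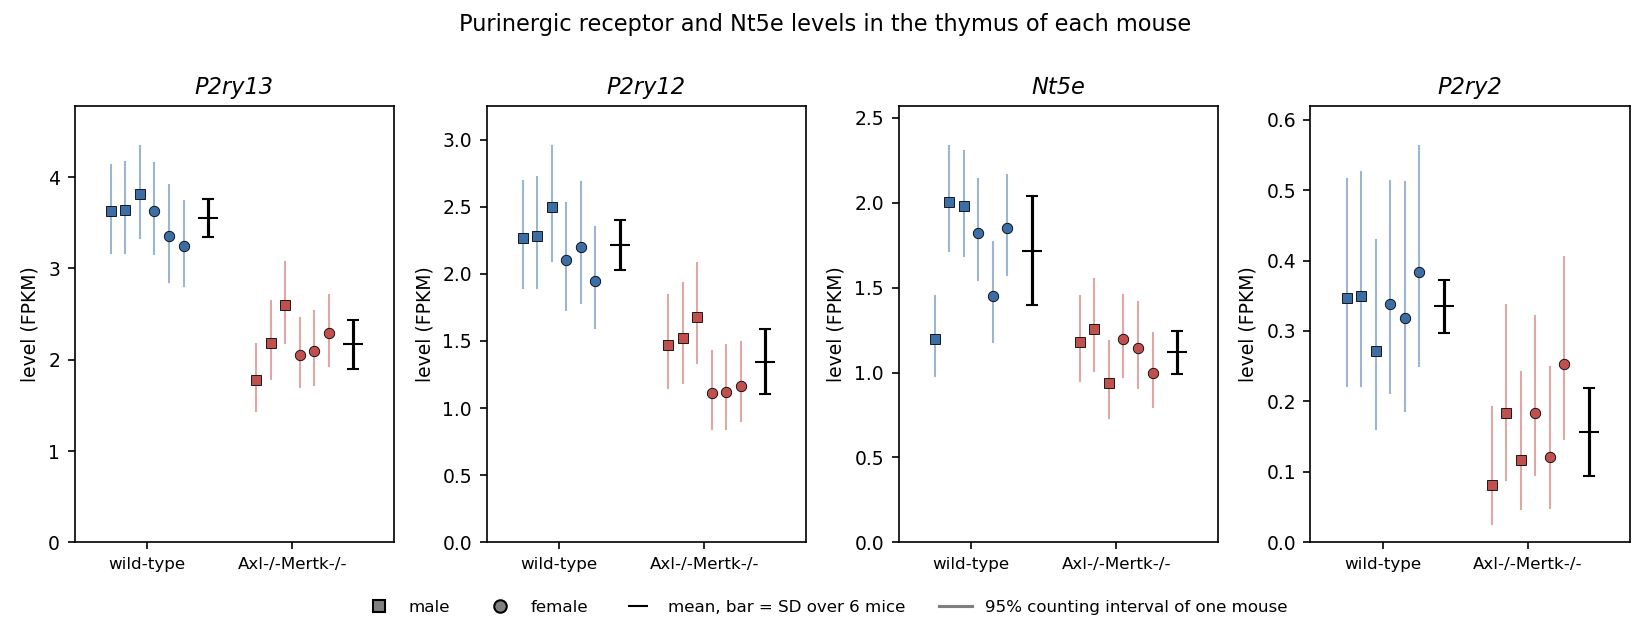
Level of each gene in FPKM (vertical axes, from 0) in each of 6 WT and 6 Axl-/-Mertk-/- mice, with squares for males, circles for females, thin lines for the 95% counting interval of a mouse and black bars for mean ± SD. P2ry13, P2ry12 and P2ry2 do not overlap between genotypes, whereas WT male 210, at 1.20 FPKM, places Nt5e within the range of the mutants.

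P2ry2, the ATP and UTP receptor, was the least abundant of the 4 genes and was at the smallest fraction of WT. It ranged from 0.272 to 0.384 FPKM in WT mice (median 0.343) and from 0.082 to 0.253 FPKM in mutant mice (median 0.152). The mutant mean of 0.157 ± 0.0619 FPKM was 46.7% of the WT mean of 0.335 ± 0.0374 FPKM (exact permutation p = 0.00216, n = 6 per genotype). The genotypes did not overlap in FPKM, but they were separated by only 0.019 FPKM, worth 1.28 reads. WT libraries held 17 to 26 P2ry2 reads and mutant libraries 5 to 17. A WT female and a mutant female both had an estimated 17 reads, and their FPKM differed through depth. Summed reads were 130 in WT and 58 in mutant mice, a depth-scaled 47.2% of WT with a 95% exact interval of 34.0 to 64.8%. This interval includes the percentages of both ADP receptors, so that a deeper fall of P2ry2 was not detectable at this depth.

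Nt5e, encoding CD73, was lower in mutant mice on average, with overlap through 1 WT mouse. It ranged from 1.20 to 2.01 FPKM in WT mice (median 1.84) and from 0.938 to 1.26 FPKM in mutant mice (median 1.16). WT male 210 (1.20 FPKM) was within the mutant range, 5 of 6 WT mice were above the highest mutant, and 5 of 6 mutants were below the lowest WT mouse. The mutant mean was 65.1% of WT (1.12 ± 0.124 against 1.72 ± 0.323 FPKM, exact permutation p = 0.00433, n = 6 per genotype). Without WT male 210, the lowest WT value was 1.45 FPKM, the genotypes did not overlap, and the mutant mean was 61.3% of WT. The WT spread of Nt5e was 2.23 times the counting SD, or 1.47 times without WT male 210, against 1.03 times in mutants. Its summed reads, 845 in WT and 517 in mutant mice, gave 64.8% of WT (95% exact interval 57.9 to 72.3%).

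Among markers of regulatory T cells, which also carry CD73, 2 of 9 were in the table. The transcription factor Foxp3 fell from 1.29 ± 0.277 to 0.683 ± 0.148 FPKM, and the inhibitory receptor Ctla4 rose from 4.36 ± 0.310 to 6.84 ± 1.18 FPKM (limma adjusted p = 0.00197 and 0.00132). Their summed level, of which Ctla4 made up the larger part, was 5.09 to 6.44 FPKM in WT and 6.32 to 8.94 FPKM in mutant mice. The paper reports that CD4+FoxP3+ regulatory T cells were fewer in the mutant thymus. Of 9 platelet and megakaryocyte markers, another source of P2ry12, only Pf4 was in the table, and it rose from 1.63 ± 0.427 to 5.96 ± 0.601 FPKM (adjusted p = 2.24e-06). Of 13 markers of TIM-4 and VCAM1 positive resident macrophages, 8 were in the table, and all 8 fell (adjusted p under 0.05), as did 61.8% of the 479 listed genes. Their summed level was 136 to 211.8 FPKM in WT and 78.9 to 122 FPKM in mutant mice. Of 9 markers of CX3CR1 positive and microglia-type macrophages, 4 were in the table. Cx3cr1 (174% of WT), the lipid receptor Trem2 (202.8%) and Fcrls (258%) rose, whereas Tmem119 fell to 70.2% without overlap (adjusted p under 0.05 for each). The part of these cells in the levels of P2ry12, P2ry13, P2ry2 and Nt5e was not tested.

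In the fit across all 479 genes (limma on log2(FPKM + 5) with sex as covariate), all 4 genes fell with an adjusted p under 0.05, against the same background of 61.8%. Differences on this scale were -0.26 ± 0.0255 (SE) for P2ry13 (adjusted p = 3.97e-05), -0.19 ± 0.0146 for P2ry12 (6.14e-06), -0.13 ± 0.0314 for Nt5e (0.00353) and -0.049 ± 0.00975 for P2ry2 (0.00181). None of the 4 also passed a log2 fold change of 0.5, which 3.13% of the genes did in this direction. The paper, which tested raw counts, names P2ry2, P2ry12 and P2ry13 among the macrophage core signature genes that fell. Its call and the fold change on the present scale are therefore unlike measures. The added constant of 5 FPKM is larger than the level of each gene. Complete loss of Nt5e would give -0.43 and of P2ry2 -0.09, so that neither could have passed, while P2ry12 could have reached -0.53 and P2ry13 -0.77. With a constant of 0.1 FPKM the differences were -0.79 for P2ry2, -0.69 for both P2ry12 and P2ry13 and -0.56 for Nt5e, and all 4 passed both thresholds, as did 50.9% of the table. Genotypes did not overlap, with the mutants lower, for 3 of the 4 genes and for 26.3% of all 479 genes. Without WT male 210 this became 4 of the 4, and 31.5% of all genes.

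The falls of the ADP receptors were typical of the falling genes in the table. Of the 313 genes with a lower mutant mean, the median mutant level was 60.4% of WT. P2ry12 and P2ry13 stood at this median, with 50.2% and 51.4% of these genes below them, while 16.9% stood below P2ry2 and 66.8% below Nt5e. By WT level, P2ry13 was at rank 85 of 479, P2ry12 at rank 124, Nt5e at rank 153 and P2ry2 at rank 385.

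**Figure D2:**
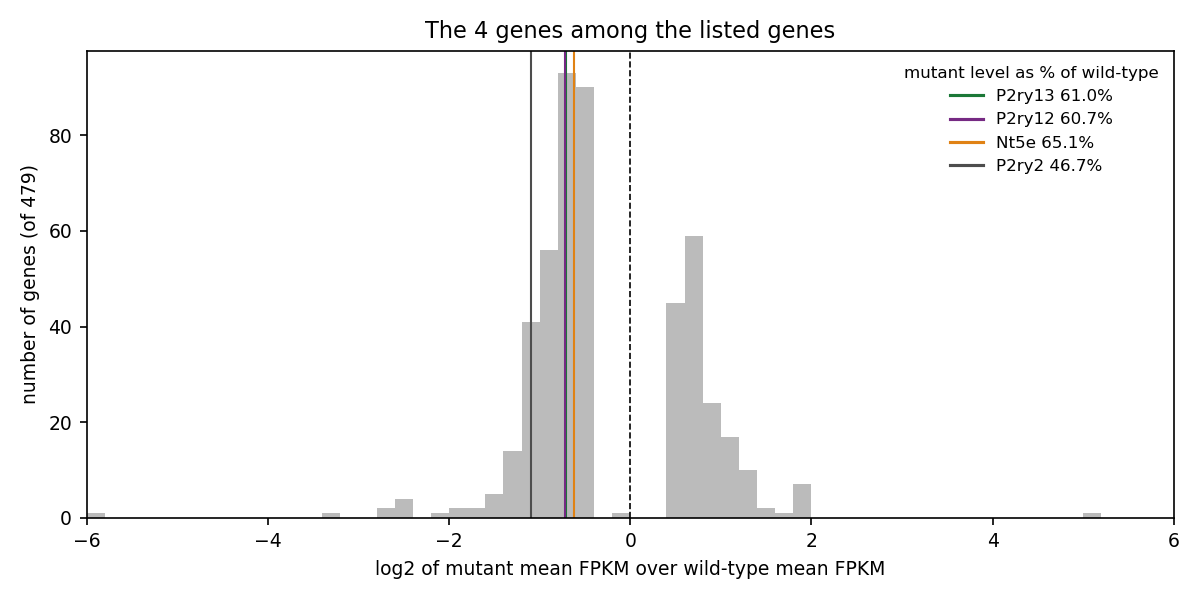
Histogram of log2 mutant over WT mean FPKM (horizontal axis) for the 479 genes (vertical axis, number of genes per bin of 0.2), with a line for each of the 4 genes. The lines of P2ry12 (60.7% of WT) and P2ry13 (61.0%) fall together in the main peak of lower genes, and the stretch around 0 is nearly empty in this list of genes that differed.

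The order of the 4 levels was the same in both genotypes, P2ry13 above P2ry12 above Nt5e above P2ry2. In WT mice all 3 steps held in 6 of 6 mice (sign-flip exact permutation p = 0.0313 each, the smallest p that 6 mice allow). P2ry13 was 1.61-fold above P2ry12, which was 1.31-fold above Nt5e, which was 5.07-fold above P2ry2. In mutant mice P2ry13 over P2ry12 (1.62-fold) and Nt5e over P2ry2 (7.59-fold) held in 6 of 6 mice (exact p = 0.0313). P2ry12 and Nt5e did not differ beyond their spread there, with P2ry12 higher in 4 of 6 mice (1.19-fold, exact p = 0.125). Of the summed FPKM of the 4 genes, P2ry13 made up 45.5 ± 1.87% in WT and 45.2 ± 3.67% in mutant mice, and P2ry12 28.3 ± 1.81% and 28.0 ± 3.67%. Nt5e made up 21.9 ± 3.34% and 23.5 ± 3.47%, and P2ry2 4.31 ± 0.656% and 3.28 ± 1.32%.

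Ratios within each mouse were then compared for the 6 pairs of genes, since a ratio does not depend on the depth of the library. None of the 6 ratios passed an adjusted p of 0.05 between genotypes (exact permutation tests of log2 ratios, adjusted over the 6). The ratio of P2ry13 to P2ry12 was 1.53 to 1.73 in WT mice (median 1.60) and 1.21 to 1.96 in mutant mice (median 1.70). The mutant ratios extended to both sides of the WT range. On the log2 scale the mean difference was 0.02 (95% interval -0.25 to 0.26, exact p = 0.903, adjusted p = 0.903), where the interval holds the differences that the permutation test does not reject. The ratio of P2ry13 to Nt5e differed by -0.12 (-0.51 to 0.27, adjusted permutation p = 0.621) and that of P2ry12 to Nt5e by -0.13 (-0.54 to 0.28, adjusted permutation p = 0.621). Without WT male 210 they were -0.011 and -0.025, so that 1 mouse made up most of both differences.

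Mean ratios to P2ry2 were higher in mutant mice in all 3 cases, without passing the test. P2ry13 over P2ry2 had a median of 10.5 in WT mice and of 14.6 in mutant mice, where it reached 22.2, a log2 difference of 0.47 (-0.08 to 1.05, exact p = 0.0952, adjusted p = 0.286). P2ry12 over P2ry2 differed by 0.45 (-0.27 to 1.16, adjusted permutation p = 0.407). It differed by 0.25 without the mutant male with 5 P2ry2 reads, and by 0.65 without the mutant female with 17. Nt5e over P2ry2 differed by 0.58 (-0.06 to 1.21, adjusted permutation p = 0.286). With each mouse left out in turn it differed by 0.40 to 0.77, and P2ry13 over P2ry2 by 0.35 to 0.61. None of the 3 passed in these omissions. The smallest adjusted permutation p was 0.0519, for Nt5e over P2ry2 without the mutant female with 17 P2ry2 reads. These 3 ratios share the P2ry2 values, from few reads. Their intervals do not show that the genes fell alike, since they reach log2 differences above 1.

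**Figure D3:**
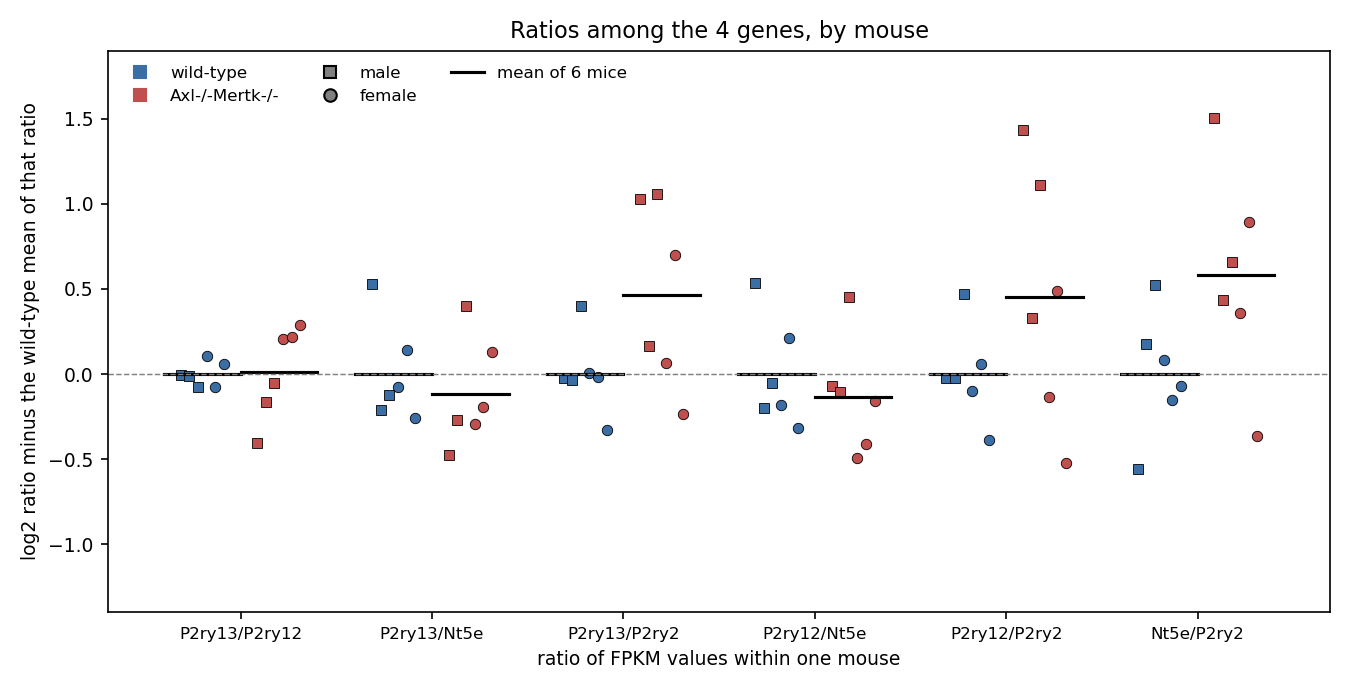
Log2 ratio of FPKM within each mouse minus the WT mean of that ratio (vertical axis) for the 6 pairs of genes (horizontal axis), with squares for males, circles for females and black lines for means of 6 mice. Mutant means lie between -0.13 and 0.58, and the mutant points for P2ry13/P2ry12 spread to both sides of the narrow WT range.

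To place the genes beside macrophage genes of the same mice, each was divided by Vcam1 and Timd4, which mark the resident thymic macrophages, by the complement gene C1qa and by the fractalkine receptor Cx3cr1. P2ry12 and P2ry13 kept close to Vcam1, which was at 60.8% of WT. All of these stood near the median of the falling genes (60.4% of WT), so that this closeness is not particular to Vcam1. The 8 resident macrophage markers in the table ranged from 10.6% to 70.7% of WT, with a median of 45.2%. The P2ry12 to Vcam1 ratio was 0.0375 to 0.0490 in WT and 0.0360 to 0.0492 in mutant mice, a log2 difference of -0.02 (95% interval -0.21 to 0.16, exact permutation p = 0.773). The P2ry13 to Vcam1 ratio was 0.0573 to 0.0796 in WT and 0.0525 to 0.0783 in mutant mice, a log2 difference of -0.01 (-0.25 to 0.21, exact permutation p = 0.900). Both genotypes covered nearly the same range of each ratio. The Nt5e to Vcam1 ratio differed by 0.11 (-0.26 to 0.48), or by 0.0061 without WT male 210. The P2ry2 to Vcam1 ratio differed by -0.47 (-1.15 to 0.18). It differed by -0.28 without the mutant male with 5 P2ry2 reads, and by -0.62 without the mutant female with 17. None of the 4 ratios to C1qa passed the test either, with differences from -0.67 (P2ry2) to -0.09 (Nt5e).

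Timd4, the phosphatidylserine receptor TIM-4, was at 43.7% of WT, a smaller fraction than the ADP receptors. P2ry13 over Timd4 was 0.890 to 1.05 in WT mice (median 0.973) and 0.811 to 2.17 in mutants, whose range extended to both sides. The log2 difference was 0.59 (0.09 to 1.05), with an exact permutation p = 0.0216 and p = 0.0693 after adjustment over the 16 ratios. P2ry12 over Timd4 differed by 0.57 (-0.09 to 1.17) and Nt5e over Timd4 by 0.71 (-0.05 to 1.42). P2ry2 over Timd4 differed by 0.12 (-0.41 to 0.63, exact permutation p = 0.608). The ratios of P2ry13, P2ry12 and Nt5e to Timd4 did not pass with any of 11 mice left out in turn. Among these omissions they passed only without the mutant female with the highest Timd4 level of the mutants (2.82 FPKM). Her removal raises them by construction (0.75, 0.79 and 0.92, adjusted permutation p = 0.00577, 0.00577 and 0.0346). With all mice and a constant of 5 FPKM in the ratios they also passed (0.15, 0.22 and 0.27, adjusted permutation p = 0.0346, 0.0220 and 0.0208).

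All 4 ratios to Cx3cr1 were lower in mutant mice without overlap. Cx3cr1 itself rose from 1.01 ± 0.168 to 1.76 ± 0.256 FPKM (limma adjusted p = 0.000636), also without overlap. For P2ry13, P2ry12 and P2ry2 the separation of the ratios therefore follows from the levels and is no further test. P2ry13 over Cx3cr1 was 3.14 to 4.66 in WT and 0.833 to 1.81 in mutant mice, and P2ry12 over Cx3cr1 was 1.82 to 3.06 and 0.634 to 1.17. P2ry12 was thus above Cx3cr1 in 6 of 6 WT mice and in 1 of 6 mutants. Nt5e was above Cx3cr1 in every WT mouse (1.27 to 2.02) and below it in every mutant (0.553 to 0.684, exact permutation p = 0.00216, adjusted p = 0.00866). Nt5e and Cx3cr1 were both listed because they differed in these mice, and in opposite directions. The p-value of their ratio is therefore not independent evidence either. Mutant ratios were 0.347 of WT for P2ry13, 0.344 for P2ry12, 0.377 for Nt5e and 0.252 for P2ry2.

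**Figure D4:**
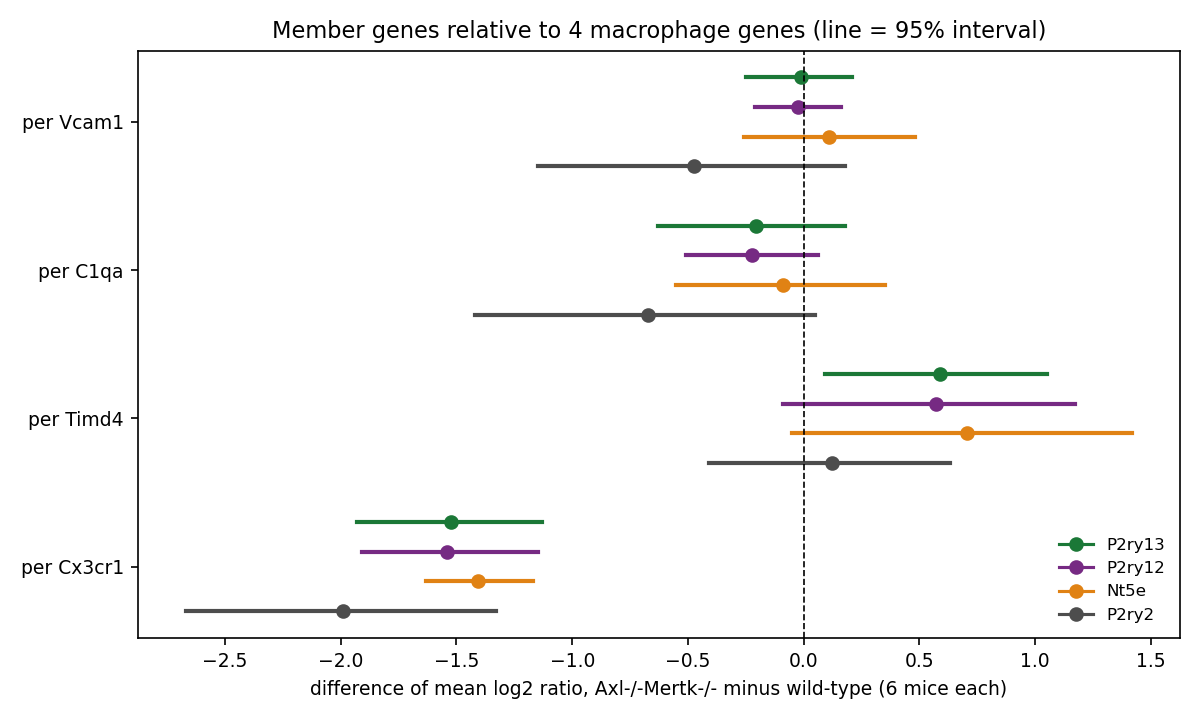
Difference of mean log2 ratio, mutant minus WT (horizontal axis), for each of the 4 genes divided by Vcam1, C1qa, Timd4 or Cx3cr1 (rows), with 95% intervals from the permutation test as lines. Ratios to Vcam1 lie around 0 for P2ry13 (-0.01) and P2ry12 (-0.02), and all 4 ratios to Cx3cr1 lie between -1.99 and -1.41.

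The genes of the table whose levels were most like each of the 4 were found by the root mean square difference of log2 values over the 12 mice, after setting each gene to its own mean. This is a description of a selected list. P2ry12 was nearest to Vcam1 (0.128), the vascular cell adhesion molecule carried by resident macrophages, then to Slc45a3 (0.133) and to the neuronal adhesion gene Cntn1 (0.134). Cntn1 was at only 0.133 FPKM in WT and 0.0682 FPKM in mutant mice. These levels are near the constant of 0.1 FPKM added before the logarithm, which shrinks its changes. P2ry13 was nearest to Cd86 (0.110), the costimulatory ligand of antigen-presenting cells, then to Kctd12b (0.141) and the actin nucleator Spire1 (0.146). Cd86 was at 63.3% of WT (7.47 to 4.73 FPKM) and Vcam1 at 60.8% (51.0 to 31.0 FPKM). P2ry12 was only the 9th nearest to P2ry13, and P2ry13 the 10th nearest to P2ry12 (0.169). Genes near Nt5e included the prostaglandin synthase Ptgs2 (0.143) and the chromatin remodeler Chd7 (0.145). P2ry2 had no neighbor as close, the nearest being the girdin gene Ccdc88a (0.184) and the diacylglycerol kinase Dgkh (0.206). Its few reads (5 to 26 per library) add counting error to these distances. A lack of near genes therefore cannot be told apart from noise.

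The other genes of the pathway were looked up by fixed lists, and for a gene outside the table no value was analysed here. Of 14 P2Y receptors and relatives, the 3 described here were in the table. Of 7 P2X channels and 4 adenosine receptors, 0 were in it. Of 11 ecto-nucleotidases, Nt5e alone was in the table, and of 10 genes of nucleotide release and other find-me signals, Cx3cr1 alone. Of 10 genes of adenosine removal and transport, the concentrative nucleoside transporter Slc28a2 was present. It fell from 9.05 ± 0.778 to 4.67 ± 1.71 FPKM, 51.6% of WT, without overlap (limma adjusted p = 0.000709). Slc28a2 lies 6.24 Mb from Mertk on chromosome 2, and linked sequence from the mutant Mertk chromosome cannot be told apart from the genotype there. Of the 5 neighbors of P2ry12 and P2ry13 on chromosome 3, Med12l and P2ry14 among them, 0 were in the table.

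The falls were present in both sexes. P2ry13 was at 59.2% of WT in males and 62.9% in females, Nt5e at 65.1% and 65.0%, P2ry12 at 66.3% and 54.4%, and P2ry2 at 39.4% and 53.6%. A sex by genotype interaction was not detected for any of the 4 genes. In limma, 0 of 479 genes had an interaction with an adjusted p under 0.05, while 3.13% had an unadjusted p under 0.05. P2ry12 had the smallest interaction p of the 4 genes (0.150, adjusted 0.962).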

How the data were processed

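Thymus RNA of 12 mice was measured by stranded mRNA sequencing with single reads of 50 bases. The authors mapped reads to mm10 with STAR 2.5.3a, computed FPKM over exons of the top isoform with HOMER 4.10.4 and deposited log2(FPKM + 5) values of 479 genes that differed between the genotypes. The study calls genes with DESeq2, with sex as confounder, at an adjusted p of 0.05 and a log2 fold change of 0.5. The paper reports fewer genes by this rule than the 479 of the deposited list, so that the rule as stated did not give it. How the list was made, and the annotation and strand setting of the counting, are not given in the sources used here. FPKM were recovered by undoing the logarithm. Mice were grouped by their labels. Reads were recovered from the steps between FPKM values. The exon length of each gene was fitted so that values became whole reads (within 0.25), which makes whole values partly built in, and read counts and their intervals rest on these lengths. Depth limits P2ry2 most. The genotype effect was fitted in limma 3.58.1, run in R 4.3.3 (sex as covariate, Benjamini-Hochberg adjustment over the 479 genes, thresholds of an adjusted p of 0.05 and a log2 fold change of 0.5), tested on simulated data, and with two-sided exact permutation tests in Python 3.11.15 with numpy 2.4.6 and scipy 1.17.1. Figures were drawn with matplotlib 3.10.9. Ratios were taken without a constant. Raw counts were not used here, so no count model was fitted. Alternatives were other constants, an intensity trend in the fit, leaving out the sex term or genes under a mean of 1 FPKM, other fold thresholds, single sexes and leaving out each mouse. The named genes were the 4 members, the 3 genes nearest to each (not all are reported here), 4 macrophage genes and genes of fixed lists. Members and lists were chosen with earlier results of these data known. Sequences are from RefSeq, where all 4 genes matched.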

Additional observations from a re-analysis of the deposited data

Results flagged for a closer look

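Among 52 groups of 6 mice (levels and ratios of the 4 genes), 6 held a mouse far from the other 5, where chance flags about 1 in 20 groups, or 2.6. Of these, 3 are ratios of P2ry2 in 1 WT male. It had 18 P2ry2 reads, where another WT mouse had 17, and the highest Vcam1 (66.6 FPKM), Timd4 (4.23 FPKM) and C1qa (117.1 FPKM) of the WT mice. On the log2 scale, its P2ry2 to Vcam1 ratio was -7.94 (others -7.20 to -6.92), its P2ry2 to Timd4 ratio -3.96 (others -3.43 to -3.25) and its P2ry2 to C1qa ratio -8.75 (others -7.90 to -7.73). In mutant mice, 1 male had the highest P2ry12 to Cx3cr1 ratio at 0.23 (others -0.66 to -0.36). Another mutant male had the lowest P2ry13 to Vcam1 ratio at -4.25 (others -3.88 to -3.67) and the lowest Nt5e to Cx3cr1 ratio at -0.86 (others -0.64 to -0.55). None of the levels themselves was far from the others by this criterion.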

How the results depend on the processing

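The direction of all 4 genes was the same under every alternative run. With fold thresholds, the number of the 4 past both went from 0 to 1 with a constant of 1 (P2ry13 at -0.53), to 4 with a constant of 0.1 (-0.79 for P2ry2, -0.69 for P2ry12 and P2ry13, -0.56 for Nt5e) and to 4 with no fold threshold (-0.049, -0.19, -0.26 and -0.13 for P2ry2, P2ry12, P2ry13 and Nt5e). P2ry2 was below a mean of 1 FPKM and had no value under that filter. In males alone, 2 of the 4 (P2ry12 and P2ry13) had an adjusted p under 0.05, and in females alone 3 (not P2ry2) (limma). The exact tests of single sexes, whose smallest p is 0.1, gave -0.91, -0.56, -0.75 and -0.55 in males and -0.67, -0.82, -0.64 and -0.57 in females, in the same order of genes. Constants in the ratios shrink the change of the lower gene by construction. With a constant of 1, 1 of the 6 ratios passed (P2ry13/P2ry2, -0.32), and with 5, 5 passed (P2ry13/P2ry12 -0.069, P2ry13/Nt5e -0.12, P2ry13/P2ry2 -0.21, P2ry12/P2ry2 -0.14, Nt5e/P2ry2 -0.085). All of these except P2ry13/Nt5e passed with the opposite sign to the ratio without a constant. With 1, P2ry13/P2ry12 (-0.067), P2ry12/P2ry2 (-0.25) and Nt5e/P2ry2 (-0.14) also turned, without passing. Of the 16 ratios to macrophage genes, 4 passed without a constant, 7 with 1 and 13 with 5, and 0 in males alone or females alone. Among these 16, the ratios that passed with the opposite sign were P2ry2/Vcam1 (0.49) and P2ry12/Vcam1 (0.23) with a constant of 1. With 5 they were P2ry2/Vcam1 (0.58), P2ry12/Vcam1 (0.44), P2ry13/Vcam1 (0.38) and P2ry2/C1qa (0.43). Without passing, signs also turned with 1 for P2ry13/Vcam1 (0.17) and for P2ry2, P2ry12 and Nt5e over C1qa (0.30, 0.045 and 0.15), and with 5 for P2ry12, P2ry13 and Nt5e over C1qa (0.29, 0.22 and 0.34). Leaving out 1 mouse gave 4 to 7 of the 16, 7 without the mutant female with the highest Timd4 level. With 5 mice the sign-flip test cannot go below 0.0625, and the steps of the order were then 0.66 to 0.70 (P2ry13 over P2ry12), 0.28 to 0.45 (P2ry12 over Nt5e) and 2.24 to 2.45 (Nt5e over P2ry2) in WT, and 0.64 to 0.78, 0.14 to 0.33 and 2.74 to 3.11 in mutants. No paired analysis was possible because the mouse numbers in the labels differ between the genotypes. The comparison without WT male 210 and the sex comparison of ratios were chosen after seeing the data.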

Other observations

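In mutant mice the ratio of P2ry13 to P2ry12 separated the sexes. It was 1.21, 1.43 and 1.55 in mutant males and 1.85, 1.87 and 1.96 in mutant females, while WT mice of both sexes were between 1.53 and 1.73. The difference between the sexes in the genotype effect was 0.39 on the log2 scale, with an exact permutation p = 0.08 over 400 arrangements of sex within genotype (3 mice per group) and p = 0.48 after adjustment over the 6 ratios. The ratio of P2ry12 to Vcam1 differed between the sexes by -0.35 in the same test (exact permutation p = 0.04, adjusted p = 0.64 over 16 ratios). These comparisons were made after the values were seen, and neither passed the adjustment.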
